A study of Mus musculus with 11 samples.

Results

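Among the H3K9me3 peaks of mouse embryonic stem cells, 3207 were narrow, poor in CpGs and placed within protein-coding genes. They were taken from the deposited unified H3K9me3 list on chromosomes 1 to 19, which holds 20576 peaks. A member was under 5 kb wide, overlapped no unified H3K4me1 or H3K27me3 peak, held under 20 CpGs per kb, and overlapped the body of a protein-coding gene (GRCm38/mm10 annotation) by at least 1 bp. The members made up 15.6% of the 20576 peaks. Another 12401 peaks met every condition except the gene overlap and are called the peaks between genes. The members were chosen by peak position, width, CpG density and gene overlap; peak positions come from read density, so read density in these libraries is a description only. Methylation was not used in the choice.

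The study measured CUT&Tag-BS, in which an antibody directs the transposase Tn5 to a histone mark, and the tagged DNA is treated with bisulfite, so that 1 library reports both the mark's position and CpG methylation. All samples were E14 cells, a mouse embryonic stem cell line of 129/Ola background, grown in serum with LIF. H3K9me3 and H3K4me1 libraries from 250000 cells were each sequenced in a run of 35 bp reads (run 1) and a run of 75 bp reads (run 2), and H3K27me3 libraries came from 4000, 20000, 100000 and 250000 cells. For each mark a CUT&Tag library from 250000 cells without bisulfite served as control. The labels name no genetic change and no treatment.

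H3K9me3 is the mark of constitutive heterochromatin. In embryonic stem cells the methyltransferase SETDB1, brought by TRIM28 and KRAB zinc finger proteins, places it on endogenous retroviruses and other transposable elements, many of which lie inside genes, and these elements are usually methylated at their CpGs as well. H3K4me1 marks enhancers and H3K27me3 is the Polycomb mark, and both usually lie on less methylated DNA. Where a CpG is methylated, bisulfite leaves its cytosine as C, so the methylation level below is the percent of all calls over CpGs that were methylated. A bulk level cannot tell a site methylated in part of the cells from one methylated on part of the alleles.

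Of the RefSeq promoter windows (250 bases before to 50 after a gene start), 62 lay wholly in members, over 60 genes and 57 members. These windows held a median of 2 CpGs, against 7 in all 31396 windows, a contrast that the density limit of the rule in part fixes. The sequences below (RefSeq, GRCm38.p6, read 5′ to 3′ on the gene's strand, with every CpG in capitals) are those of the 6 members with the most run 2 calls in such a window. They are shown because they span the range of methylation under these peaks, from unmethylated to methylated, and because they show how few CpGs carry each value.
Rpl39l, chr16:10169978-10170277, plus strand, 17 CpGs: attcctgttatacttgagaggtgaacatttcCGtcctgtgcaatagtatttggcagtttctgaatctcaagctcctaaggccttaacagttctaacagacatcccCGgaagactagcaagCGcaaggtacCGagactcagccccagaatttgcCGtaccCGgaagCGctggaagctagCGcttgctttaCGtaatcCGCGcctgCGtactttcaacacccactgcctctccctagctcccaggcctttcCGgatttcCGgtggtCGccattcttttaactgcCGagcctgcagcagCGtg
Gm26808, chr5:109923595-109923894, minus strand, 11 CpGs: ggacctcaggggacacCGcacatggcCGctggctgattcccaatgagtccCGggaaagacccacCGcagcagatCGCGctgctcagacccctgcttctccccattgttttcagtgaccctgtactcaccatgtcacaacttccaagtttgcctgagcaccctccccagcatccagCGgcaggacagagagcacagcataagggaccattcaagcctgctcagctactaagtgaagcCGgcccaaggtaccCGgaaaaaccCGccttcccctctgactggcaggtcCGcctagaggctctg
LOC115490200, chr5:109923203-109923502, plus strand, 5 CpGs: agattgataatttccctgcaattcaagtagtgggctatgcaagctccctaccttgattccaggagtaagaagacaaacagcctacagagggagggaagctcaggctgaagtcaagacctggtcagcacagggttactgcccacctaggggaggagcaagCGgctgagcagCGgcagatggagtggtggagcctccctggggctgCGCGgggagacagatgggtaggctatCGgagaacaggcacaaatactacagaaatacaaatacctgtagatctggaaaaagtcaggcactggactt
Gm4868, chr5:125849852-125850151, minus strand, 5 CpGs: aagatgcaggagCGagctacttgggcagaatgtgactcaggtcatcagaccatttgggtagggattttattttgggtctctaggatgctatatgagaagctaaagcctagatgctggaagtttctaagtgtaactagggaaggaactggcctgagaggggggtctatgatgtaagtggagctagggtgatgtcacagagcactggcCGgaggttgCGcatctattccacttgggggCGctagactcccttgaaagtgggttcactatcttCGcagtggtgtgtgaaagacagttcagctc
Bglap3, chr3:88369782-88370081, minus strand, 7 CpGs: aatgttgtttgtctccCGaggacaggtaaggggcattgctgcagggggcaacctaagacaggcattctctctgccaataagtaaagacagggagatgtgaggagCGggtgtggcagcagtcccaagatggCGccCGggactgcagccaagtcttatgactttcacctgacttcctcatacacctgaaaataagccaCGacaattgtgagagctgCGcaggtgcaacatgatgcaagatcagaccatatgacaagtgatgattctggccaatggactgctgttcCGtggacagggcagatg
Ces2h, chr8:105000580-105000879, plus strand, 4 CpGs: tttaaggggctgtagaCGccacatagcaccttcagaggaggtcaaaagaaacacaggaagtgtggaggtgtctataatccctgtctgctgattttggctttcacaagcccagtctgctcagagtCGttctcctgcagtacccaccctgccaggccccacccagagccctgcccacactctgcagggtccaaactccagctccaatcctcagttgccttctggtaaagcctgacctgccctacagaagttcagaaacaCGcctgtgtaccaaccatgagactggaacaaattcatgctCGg
Clec4a3, chr6:122952394-122952693, plus strand, 7 CpGs: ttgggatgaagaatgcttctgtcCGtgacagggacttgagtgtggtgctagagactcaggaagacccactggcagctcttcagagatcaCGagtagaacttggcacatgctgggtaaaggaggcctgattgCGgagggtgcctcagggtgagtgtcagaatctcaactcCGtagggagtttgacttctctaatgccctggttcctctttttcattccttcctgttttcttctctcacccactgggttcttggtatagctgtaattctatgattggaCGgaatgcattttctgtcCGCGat

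Rpl39l encodes a paralogue of ribosomal protein L39 that is known from the testis, and its window held the most CpGs of any window covered. The level in the window was 32.3% of 31 run 1 calls and 26.7% of 86 run 2 calls (95% Wilson interval 18.5 to 36.9%). In the rest of its peak (chr16:10169561-10173854) the level was 70.0% of 30 run 1 calls and 68.4% of 76 run 2 calls (57.3 to 77.8%). The methylation of this peak was thus lower at the gene start than away from it in both runs. Over the whole peak, run 2 gave 46.3%, against 97.9% of 48 calls in the 5 kb on each side outside H3K9me3 peaks (Fisher's exact test, two-sided, adjusted p = 1.24e-10). Few calls came from other libraries: 100% of 5 in H3K27me3 from 250000 cells and 26.7% of 15 in H3K27me3 from 100000 cells.

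Gm26808, a long non-coding RNA gene, and the protein-coding LOC115490200 start inside the same peak (chr5:109922169-109924387). In the Gm26808 window, 0 of 23 run 1 calls and 0 of 84 run 2 calls were methylated. This allows a level of up to 13.04% and 3.57% if every call is independent. Of these run 2 calls, 16, 18 and 17 came from CpGs at -13, 1 and 11 bp from the gene start. Such close CpGs can share reads, so the true limits are wider. The 109 run 2 calls in the rest of the peak gave 37.6% (29.1 to 47.0%), and the LOC115490200 window gave 0 of 16 calls in run 1 (up to 18.8%) and 14.9% of 47 in run 2. The unmethylated calls were therefore not spread evenly over this peak. In H3K27me3 from 250000 cells, 0 of 23 calls over the peak were methylated (up to 13.04%), with 22.2% of 9 in H3K27me3 from 100000 cells and 30.8% of 13 in H3K4me1 run 2. The flanks stood at 85.0% of 20 calls in H3K9me3 run 2 (adjusted exact p = 5.99e-07 for inside against flanks).

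The other 4 windows were more methylated. Gm4868 was at 77.8% of 18 run 1 calls and 58.1% of 43 run 2 calls, with 93.7% of 63 calls in the rest of its peak in run 2. Ces2h, a carboxylesterase gene, was at 50.0% of 12 and 78.1% of 32 calls. Bglap3, of the osteocalcin family, was at 83.3% of 18 and 80% of 60 calls, and Clec4a3, a C-type lectin gene, at 100% of 10 and 91.3% of 46 calls. For Bglap3 and Clec4a3 the interval of the rest of the peak, 66.5 to 82.3% and 84.9 to 93.5% in run 2, overlapped the window's own.

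**Figure D1:**
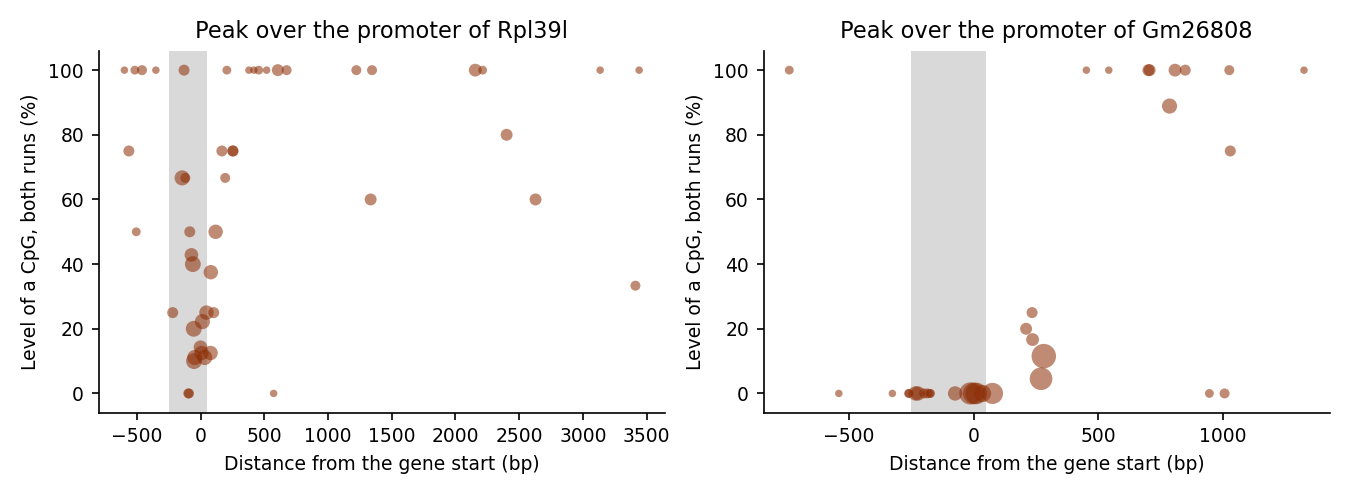
Methylation level of each CpG (percent, both H3K9me3 runs summed, point area by number of calls) against the distance from the gene start in bp, in the peaks over the starts of Rpl39l and Gm26808; grey marks the promoter window. Most CpGs at 0 lie around the gene start, and most CpGs of Rpl39l beyond the window are high.

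As a group the members were highly methylated. The level was 87.4% of 59934 calls in run 1 (87.1 to 87.6%) and 87.0% of 190125 calls in run 2 (86.9 to 87.2%), a mean of 87.2% ± 0.234 (SD over 2 runs). The runs were treated as repeat sequencing of 1 library and not as biological replicates, which is how their labels read but is not spelled out there. Of the members' CpGs called once in each run, 92.1% of 2765 had the same state, against 85.5% of 10452 CpGs called 2 times within run 2, which are other CpGs. Intervals cover counting error only, and there is no test across libraries; nothing in the sources says that libraries came from separate cultures.

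The peaks between genes stood at 86.5% in run 1 and 86.6% in run 2, so that members were higher by 0.671 points on the mean of the runs. The sign held on 14 of 19 chromosomes, and the difference ranged from -1.86 to 3.32 points over chromosomes (SD 1.32). It is given with no test. Narrow CpG-rich peaks stood at 80.2%, wide H3K9me3-only peaks at 88.1%, and H3K9me3 peaks that overlap another mark at 67.0% (means of runs).

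In the H3K27me3 and H3K4me1 libraries the same regions were barely sampled, which the rule in part fixes: their share of calls over their share of CpGs was 11.1 in H3K9me3 run 2, 0.0899 in H3K27me3 from 250000 cells and 0.183 in H3K4me1 run 2. The calls that H3K27me3 did return were 78.0% methylated with 4000 cells (123 calls, 69.9 to 84.5%), 81.3% with 20000 (1150 calls), 84.1% with 100000 (5823 calls) and 85.0% with 250000 (9284 calls, 84.3 to 85.8%). The interval with 4000 cells overlapped those of every larger cell number. That with 20000 cells (78.9 to 83.5%) overlapped that with 100000 cells (83.1 to 85.0%) but did not reach that with 250000. H3K4me1 calls over the members were 59.8% methylated in run 1 (2401 calls) and 60.3% in run 2 (4957 calls).

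At CpGs called in both libraries, H3K9me3 run 2 gave 85.5% and H3K27me3 from 250000 cells 85.2%, a difference of 0.280 points with overlapping intervals (85.1 to 85.9% and 84.4 to 85.9%). Against H3K4me1 run 2 the same comparison gave 72.7% and 59.9%, a difference of 12.7 points (71.9 to 73.4% and 58.5 to 61.3%). In peaks between genes these differences were 0.579 and 13.3 points. The members' calls thus differed little between the H3K9me3 and H3K27me3 libraries and more between H3K9me3 and H3K4me1, in both kinds of peak. These values compare libraries, not marks.

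**Figure D2:**
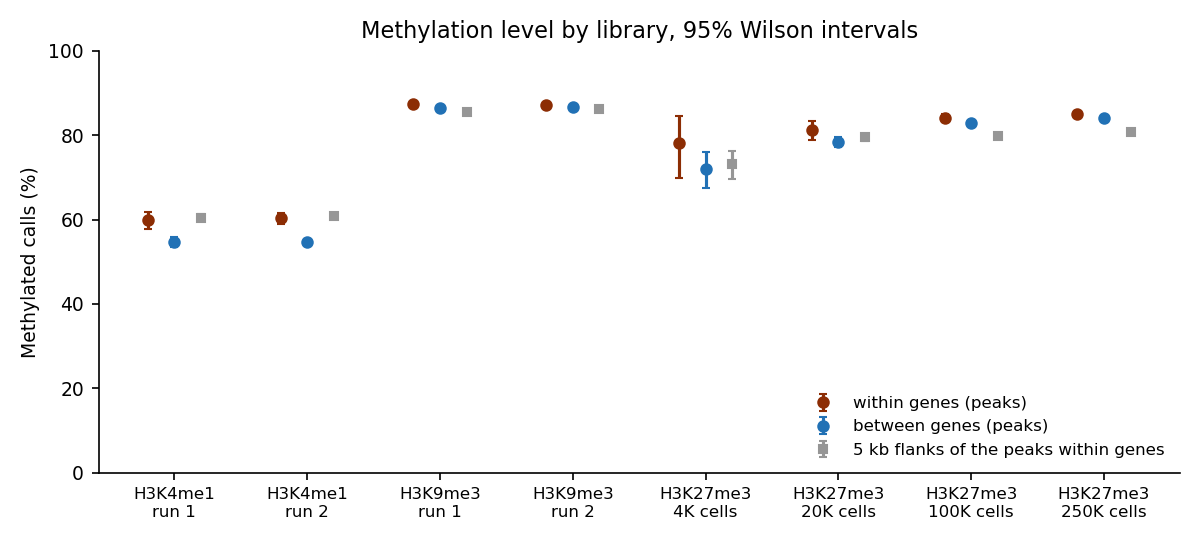
Methylation level (percent of calls) in each bisulfite library for the 3207 peaks within genes, the 12401 peaks between genes, and the 5 kb flanks of the peaks within genes outside every peak; bars are 95% Wilson intervals and cover counting error only. The H3K4me1 runs lie near 60% over the peaks within genes and the H3K9me3 runs near 87%.

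Single members varied more than the group level shows. With at least 20 calls in run 2, 2491 members had a median level of 90.2% (quartiles 83.3 and 94.2%), 2007 of them (80.6%) lay over 80%, 476 between 20 and 80% and 8 under 20%. The 9609 peaks between genes with as many calls had a median of 89.8%. The remaining members had too few calls for a level of their own, among them 10 with no CpG at all. Of 14416 single CpGs with at least 5 calls, 74.4% were over 80%, 22.4% between and 3.21% under 20%.

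**Figure D3:**
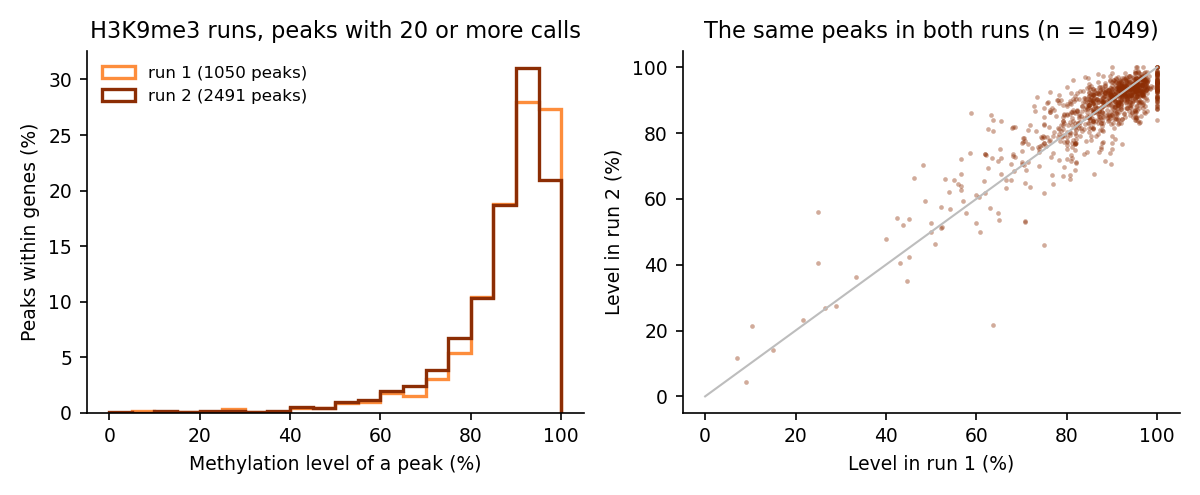
Left, distribution of the methylation level (percent) over members with 20 or more calls in H3K9me3 run 1 (1050 peaks) and run 2 (2491 peaks). Right, run 2 against run 1 for the 1049 members with 20 or more calls in both; most points lie near the line of equality in the upper corner, with a tail towards low levels in both runs.

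Over the 1049 members with 20 calls in both runs, the median absolute difference between runs was 3.3 points. If the runs are 1 library, this gives the repeatability of sequencing and not of the cells. Among the named members, that in Nkain3, a gene for a membrane protein that interacts with the sodium pump, was at 63.6% of 22 calls in run 1 (43.0 to 80.3%) and at 21.6% of 37 in run 2 (11.4 to 37.2%). The intervals did not overlap, but this member was named for its difference from its flanks in run 2, and the difference between runs was not tested.

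The members were near the genome in CpG density. Their median was 8.99 CpGs per kb (quartiles 5.99 and 12.99), against 8.48 over chromosomes 1 to 19, so the limit of 20 removed CpG-rich sequence without leaving a set below the average. Their median width was 1399 bp, and 883 members had the smallest width in the list, 1001 bp. Together they held 57588 CpGs in 5.84 Mb. Levels were higher in denser members: 84.1% under 5 CpGs per kb, 85.4% from 5 to under 10, 87.7% from 10 to under 15 and 88.3% from 15 to under 20, all in run 2. Run 1 gave 84.2, 85.9, 87.9 and 88.9% in the same order.

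Just inside the width limit was the member in Arhgap18, at 4999 bp with 86.8% in run 2, and just outside the peak in Rgs7bp, at 5010 bp with 95.7%. Just inside the density limit were members in Magi1, Cntn3 and Vat1l, each at 19.98 CpGs per kb, with 76.5, 82.0 and 78.1%, and just outside the peak in Zbtb8b, at 20.06 with 93.5%. These values describe the edges only.

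Support for a member differed between the lists that were merged. The run 2 list held 2970 members (92.6%), the run 1 list 1735 (54.1%) and the control list without bisulfite 1586 (49.5%). All 3 lists held 1142 members, 2 of them 800, and only 1 list 1265, of which 1061 came from run 2 alone. Peaks between genes had similar shares, with 93.7, 54.5 and 50.6% in the same order. Levels in run 2 were 85.6% in members of 1 list, 87.0% in those of 2 and 87.5% in those of all 3.

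Coverage was highest at the peak centre, while the level in H3K9me3 run 2 lay between 80.2 and 88.1% in every 250 bp bin up to 5 kb away. Members had 4.04 calls per CpG in the bin just before the centre and 0.610 in the outermost bin on that side, with levels of 86.3% and 85.7%. The lowest bin (80.2%) was centred 4125 bp before the peak centre. H3K27me3 from 250000 cells differed: its level was 83.6% just before the centre, 54.2% in the outermost bin on that side and 36.8% in the lowest bin, 3875 bp after the centre. These bins include neighbouring peaks of other marks; outside every peak, the flanks stood at 80.7% in that library. CpG density was 10.3 per kb at the centre and 9.12 in that outer bin.

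**Figure D4:**
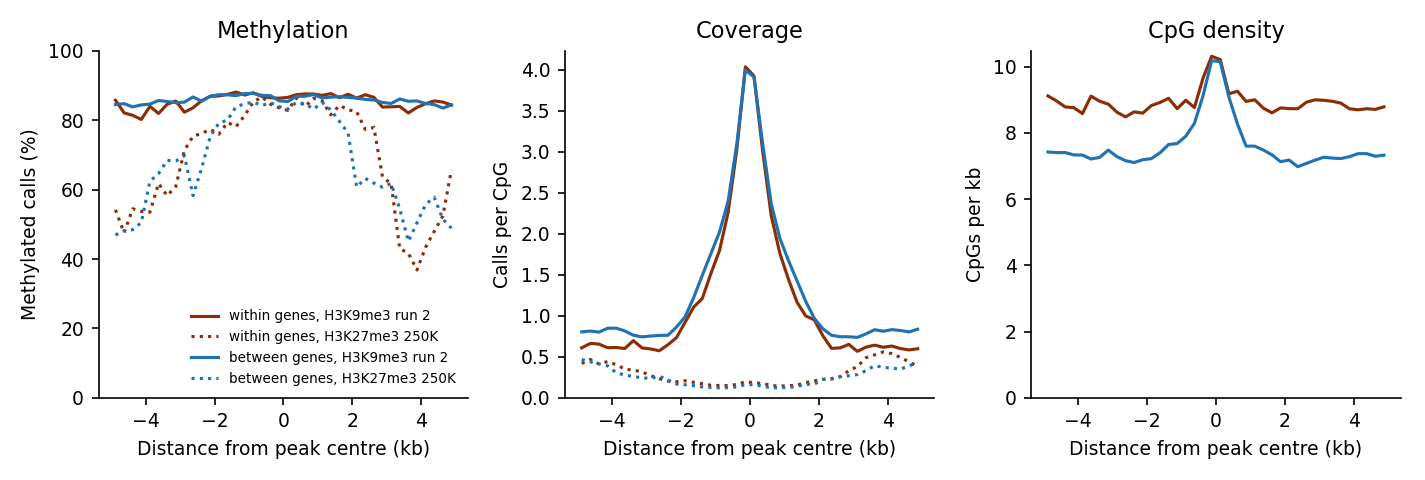
Methylation (percent of calls), coverage (calls per CpG) and CpG density (per kb) in 250 bp bins by distance from the peak centre, for peaks within and between genes, in H3K9me3 run 2 (solid) and H3K27me3 from 250000 cells (dotted); flanks here include neighbouring peaks. H3K9me3 coverage peaks at about 4 calls per CpG while the level stays over 80%.

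Inside against the 5 kb flanks outside every H3K9me3 peak, 1996 members (62.2%) had at least 20 calls on both sides in run 2. Fisher's exact test, two-sided, adjusted by Benjamini-Hochberg over all 13655 peaks tested, called 160 members higher inside (8.02%) where the background over all peaks was 7.78%, and 87 lower inside (4.36%) where the background was 8.21%. The median difference was 1.82 points over members and 0.542 over all peaks tested. The share called higher was thus near the background and the share called lower was below it. Peaks between genes gave 6.06% higher and 5.35% lower, and peaks that overlap another mark, which enter the background, 13.7 and 37.9%. The test compares positions within 1 library. With flanks kept outside the peaks of every mark, an alternative chosen after seeing the data, 107 were higher and 88 lower, so that 54.9% of the called members were higher in place of 64.8%. Run 1 alone called 27 higher and 5 lower among 298 members tested.

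Among the named members, the 4 largest differences towards a higher level inside lay beside lowly methylated flanks, which differences of that size require. The largest towards a lower level inside was -79.7 points, in Gm17768, given below. In Haus4, for a subunit of the augmin complex of the spindle, the peak was at 89.1% of 46 run 1 calls and 85.0% of 133 run 2 calls, against 19.8% of 227 flank calls (adjusted exact p = 3.45e-32). Golga7, which codes for a partner in protein palmitoylation, was at 91.9% of 62 and 91.4% of 222 calls against 28.1% of 57 in the flanks (adjusted exact p = 2.50e-19). Serpinb6a, a serine protease inhibitor gene, was at 80% of 20 and 85.5% of 55 against 18.9% of 95 (adjusted exact p = 5.52e-14). The flanks of these 3 held no call inside a peak of another mark. For Etl4 the flanks went from 53 calls at 17.0% to 4 calls at 100% once peaks of other marks were left out, so its contrast with 96.9% inside rests on flanks that another mark covers.

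A few members were lowly methylated. Among peaks with 20 calls in run 2, 1.93% of members lay under 50%, against 2.56% of peaks between genes. The share was 8.12% in narrow CpG-rich and 0.634% in wide H3K9me3-only peaks. Of the 48 under 50% in run 2, 34 had at least 10 calls in run 1, and 24 of these 34 were under 50% there too; the highest run 1 level among the 34 was 75.0%. The other libraries were low over the same 48 regions: 22.0% of 200 calls in H3K27me3 from 250000 cells (16.8 to 28.2%) and 22.6% of 553 calls in H3K4me1 run 2 (19.3 to 26.3%). Over the other 2443 members with 20 calls they gave 87.0% and 65.5%. The low level was thus seen in 3 libraries, 2 of which did not choose these 48. The flanks of the low members had a median level of 83.1%, against 88.5% for the rest. Of the 48, 11 crossed a gene's edge, among 138 such members with 20 calls, and 37 lay wholly inside gene bodies, among 2353.

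Named examples of low members showed the same against their flanks. Myo3b, for an unconventional myosin of sensory cells, held a peak (chr2:70278155-70279182) at 15.0% of 20 calls in run 1, 14.0% of 50 in run 2, 5.88% of 17 in H3K27me3 from 250000 cells and 20.8% of 24 in H3K4me1 run 2. Its flanks were at 86.8% of 53 calls (adjusted exact p = 1.70e-12). This peak lay wholly inside gene bodies. Gm17768 (chr7:43077507-43078601) was at 7.14% of 28 and 11.6% of 43 calls, and at 4.35% of 23 in H3K4me1 run 2, with flanks at 91.3% of 23 (adjusted exact p = 6.30e-09). Of the 1095 bp of the Gm17768 peak, 551 lay in a protein-coding gene. The peak covered the Gm17768 promoter window whole, and 22.2% of 18 run 2 calls in that window were methylated. Both peaks were low in each library with over 10 calls there, and their surroundings, measured in H3K9me3 run 2 only, were methylated.

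Phactr3, for a regulator of protein phosphatase 1 and actin, was at 23.1% of 13 and 14.8% of 27 calls with flanks at 92.7% of 41 (adjusted exact p = 2.01e-09). Ptprn2, for a receptor phosphatase-like protein of secretory granules, was at 10% of 10 and 10.8% of 37 calls with flanks at 70.4% of 27 (adjusted exact p = 2.31e-05). Both peaks lay wholly inside gene bodies. The lowest member, in 4930522L14Rik (chr5:109751623-109752623), was at 5.88% of 17 and 4.26% of 47 calls, and had too few flank calls to test. It overlapped part of that gene's promoter window, in which 0 of 11 run 2 calls were methylated (Wilson upper limit 25.9%). Rpe, for the pentose phosphate enzyme ribulose-5-phosphate epimerase, differed from Phactr3 and Ptprn2. Its peak was at 21.7% of 23 and 23.2% of 125 calls, and its flanks at 20% of 75 (adjusted exact p = 0.945). Of the 1461 bp of the Rpe peak, 21 lay in a protein-coding gene. The peak overlapped part of the Rpe promoter window, in which 0 of 68 run 2 calls were methylated (Wilson upper limit 5.35%). Gm45871 on chromosome 18 was at 9.09% of 33 and 4.52% of 155 calls.

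Against other libraries, very few members could be compared. Only 44 had 20 calls in both H3K9me3 run 2 and H3K4me1 run 2, and Fisher's exact test called 16 of them higher in H3K9me3 (36.4%), where the background over 1351 peaks tested was 54.4%. None was called lower (background 0.222%); 18 had an unadjusted p under 0.05 in either direction. The median difference was 15.7 points over these members and 21.7 over all peaks tested. Peaks that overlap another mark made up 968 of the 1351 and gave 57.0% higher. Peaks between genes gave 29.2% higher of 137 tested, with a median difference of 13.6 points. Without run 2 of both marks, run 1 called 2 of 5 members tested. The members tested are those that H3K4me1 reads reached, so they do not stand for all 3207.

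The largest such difference was in Ahcyl2, for a relative of S-adenosylhomocysteine hydrolase, at 81.8% of 44 and 76.6% of 107 calls in H3K9me3 and 28.0% of 25 in H3K4me1 run 2 (adjusted exact p = 2.92e-05). Sh3pxd2a, for the podosome scaffold TKS5, was at 81.8% of 66 and 79.9% of 199 against 35.3% of 34 (adjusted exact p = 1.83e-06). Gm11563 was at 85.0% of 20 and 84.5% of 103 against 38.1% of 21 (adjusted exact p = 0.000103), and Amph, for the endocytic protein amphiphysin, at 67.7% of 65 and 70.6% of 160 against 30.4% of 23 (adjusted exact p = 0.000806). At CpGs called in both libraries all 4 calls held, with differences of 48.3 points in Ahcyl2, 43.2 in Sh3pxd2a, 40.8 in Gm11563 and 39.1 in Amph (adjusted exact p = 0.000129, 4.42e-05, 0.00764 and 0.00909).

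Against H3K27me3 from 250000 cells, 39 members could be tested. Fisher's exact test called 1 higher in H3K9me3 (background 17.6%) and 0 lower (background 0.662%), with 5 at an unadjusted p under 0.05, and the median difference was 2.14 points against 4.31 over all peaks tested. Of the 755 peaks in that background, 267 overlap another mark (27.3% higher). Peaks between genes gave 7.02% higher of 114 tested. The 1 call was Tasor2, for a relative of the HUSH complex subunit TASOR: 50.0% of 112 and 52.5% of 238 calls in H3K9me3, and 23.7% of 38 in H3K27me3 (adjusted exact p = 0.00949). At CpGs called in both libraries that difference turned to -6.59 points (adjusted exact p = 0.765), so the call did not hold there. The Tasor2 peak overlapped part of the gene's promoter window, which held 26 CpGs. That window was at 6.31% of 111 H3K9me3 run 2 calls and 7.69% of 39 calls in H3K27me3 from 250000 cells. Run 1 in place of run 2 called 2 of 29 members higher in H3K9me3.

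The deepest members were all methylated. Stxbp5, for the SNARE regulator tomosyn, had the most calls: 92.0% of 100 in run 1 and 94.5% of 876 in run 2. Its run 2 calls were 8.76 times its run 1 calls, against a median of 2.93 (5th to 95th percentile 1.69 to 5.05) over 1951 members with 10 run 1 calls. Cdk15, a cyclin-dependent kinase gene, was at 98.3% of 120 and 93.6% of 745, with a ratio of 6.21. The run 2 peak list did not hold the Cdk15 member, although the run 1 and control lists did. In Stxbp5 and Cdk15 the run 2 depth stood outside what most members showed. Trim3, a ubiquitin ligase gene, was at 93.3% of 193 and 94.8% of 485 calls with flanks at 56.3% of 32 (adjusted exact p = 1.07e-07), and Filip1, for a filamin-binding protein, at 96.6% of 145 and 96.5% of 396 with flanks at 69.1% of 55 (adjusted exact p = 6.70e-08). Trim80, Cmtm4, Dcaf5 and Cep162 completed the 8 deepest, at 86.8 to 94.8% in run 2.

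By place in the gene, 3050 members lay wholly inside gene bodies and 157 crossed a gene's edge. The members that crossed an edge were less methylated, at 82.2% in run 1 and 80.5% in run 2 (79.9 to 81.2%), against 87.8 and 87.5% (87.4 to 87.7%) inside. H3K4me1 calls showed the same order, 43.1% of 457 calls against 62.0% of 4500 in run 2. Of 2398 members with a position along 1 gene of known strand, the first of 5 equal parts from the 5′ end held 393, and the next parts 496, 497, 497 and 515. Levels in run 2 were 85.0% in that first part and 87.1 to 87.9% in the others. Exons and introns were not analysed here.

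Long genes held most members. They fell in 1929 protein-coding genes (9.33% of 20665), whose median length was 102 kb against 17.5 kb for all, and 677 of these genes held 2 or more. Per Mb of gene body the number was 2.74 in genes under 10 kb and then, in order of length, 2.77, 3.12, 3.26 and 3.61, the last in genes of 300 kb or more, where 71.5% of 533 genes held a member. Gene bodies cover 40.9% of the span of chromosomes 1 to 19, but 20.5% of the 15608 narrow CpG-poor H3K9me3-only peaks lay in them.

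The gene with most members per Mb among the 5 with the most was Sntg1, for the brain scaffold protein gamma-1 syntrophin (17 members, 18.0 per Mb). Its members stood at 72.4% of 228 run 1 calls and 74.5% of 711 run 2 calls, and ranged from 27.4 to 96.4% over the 13 with 20 calls. One of them (chr1:8940014-8942256) was at 28.9% of 45 and 27.4% of 117 calls, and at 24.0% of 25 in H3K4me1 run 2, with flanks at 81.3% of 48 (adjusted exact p = 9.97e-09), while another (chr1:8892948-8894782) was at 90.0% of 120 with flanks at 48.0% of 25 (adjusted exact p = 0.000133). Members of 1 gene thus differed in both directions from their surroundings.

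Fhit, for a diadenosine triphosphate hydrolase, held 13 members at 61.8% of 136 and 72.9% of 410 calls. Macrod2, for an ADP-ribosylhydrolase, held 17 at 90.3% of 186 and 91.7% of 660 calls, Cdh13, for T-cadherin, 14 at 92.1% of 318 and 90.8% of 972, and Naaladl2, a peptidase-like gene, 13 at 95.5% of 112 and 93.4% of 350. In both runs the intervals of Fhit and Sntg1 lay below those of the other 3 genes.

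**Figure D5:**
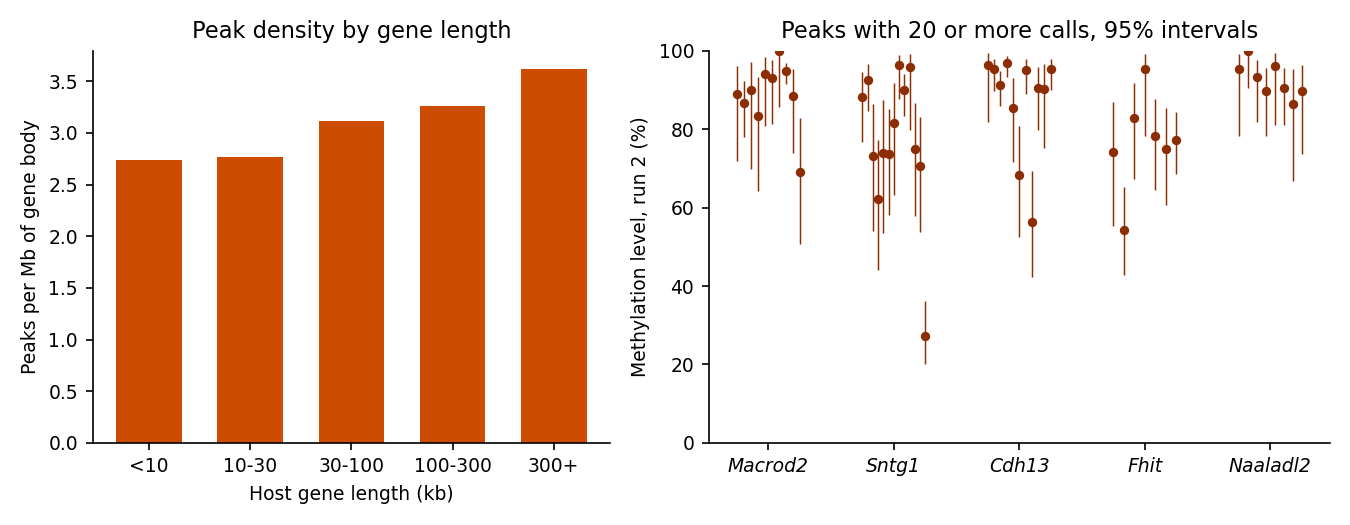
Left, members per Mb of gene body by host gene length (kb). Right, methylation level (percent, H3K9me3 run 2, 95% Wilson intervals) of each member with 20 or more calls in the 5 genes with most members; 1 Sntg1 member lies at 27.4%, below every other point.

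Gene families differed in how many members they held per Mb, against 3.26 over all protein-coding genes. Vomeronasal receptor genes, for pheromone receptors, held 48 members in 36 of 352 genes (13.4 per Mb), and olfactory receptor genes 18 in 17 of 1104 (8.50 per Mb). Their median length by annotation was 0.960 and 0.950 kb, which is below the smallest peak width, and an overlap of 1 bp counts. The 352 vomeronasal genes cover 3.57 Mb in all and the 1104 olfactory genes 2.12 Mb. Some vomeronasal genes are thus much longer than their median. Counted by gene, 36 of 352 vomeronasal and 17 of 1104 olfactory receptor genes stand beside 1929 of 20665 protein-coding genes (9.33%). The vomeronasal share by gene is thus near that of all genes, and for olfactory genes the direction turns with the measure. C2H2 zinc finger genes, the family that holds the KRAB zinc fingers, held 58 members in 46 of 461 genes (3.59 per Mb), and long neuronal and adhesion genes 312 in 70 of 84 (3.48 per Mb). Vomeronasal members stood at 83.4 and 82.9% in runs 1 and 2, zinc finger members at 88.3 and 86.9%, and olfactory members at 89.6 and 87.0%.

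Of the 36 vomeronasal members with 20 calls in run 2, 3 were under 50%, as were 0 of 13 olfactory and 0 of 44 zinc finger members. Over all members with as many calls the share was 1.93%. The deepest examples were methylated. Vmn1r65 was at 79.4% of 97 and 83.0% of 259 calls, Olfr149 at 95.2% of 83 and 95.9% of 217, and Olfr53 at 89.9% of 99 and 82.7% of 313. Zfp592 was at 96.9% of 65 and 95.5% of 133 calls, and Zfp729a at 76.8% of 69 and 87.6% of 169. Clustered protocadherin genes, for neuronal identity receptors, shared 3 peaks at 93.0 and 92.4%.

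Of 23 genes for H3K9me3 writers, erasers, readers and partners, 4 held 1 member each. Morc3, for an ATPase that acts in silencing of retroviruses, was at 65.2% of 69 and 75.1% of 245 calls, Smarcad1, for a chromatin remodeller, at 91.1% of 45 and 93.8% of 112, and Pphln1, for the HUSH subunit periphilin, at 94.7% of 19 and 93.3% of 45. Of 34 germline genes 4 held members, 5 in all. Tex14, for a protein of germ cell bridges, was at 68.4% of 38 and 68.6% of 156 calls, Tdrd9, for a helicase of the piRNA pathway, at 94.7% of 19 and 93.5% of 62, and Mael, for another piRNA factor, at 92.9% of 14 and 85.7% of 35.

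Imprinted genes held 10 members in 6 of 41 genes, at 88.0% of 100 and 85.6% of 327 calls. Of 28 pluripotency genes 1 held a member (Lifr, a receptor for LIF), and of 14 DNA methylation genes 1 (Tdg, for the thymine DNA glycosylase of active demethylation). Both had too few calls in run 1 for a value here. Of 22 Polycomb and developmental regulators 0 held a member, and they held 1 H3K9me3 peak of any kind. Over all protein-coding genes 9.33% held a member, so few members would fall in 22 genes with 0.784 Mb of body. The rule also leaves out peaks that overlap an H3K27me3 or H3K4me1 peak, so the 0 is a count only. Of 91 genes matched as ribosomal protein genes by name, 2 held one: Rpl39l, given above, and Rps6kc1, a kinase gene that only shares the prefix.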

How the data were processed

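Per the submitters' processing notes, reads were processed with cutadapt 1.12, Bismark 0.23.0, Bowtie2 2.3.0, HOMER 4.10.3 and bedtools 2.29.2 on mm10; which tool made which file, and the filters, are not given in the sources used here. The deposited table gives, per CpG and bisulfite library, counts of methylated and of all calls, and the deposited peak lists give positions. The number of per-sample columns left unused was 0. The unified H3K9me3 list equals the merge of the run 1, run 2 and control lists (21460 of 21460 peaks). All 395568 CpGs of the RefSeq promoter sequences matched positions in the table, which checks the build.

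Calls on chromosomes 1 to 19 numbered 1932036 and 6065726 in H3K9me3 runs 1 and 2, 4859852 and 9573835 in H3K4me1, and 370744, 4934467, 24056602 and 36558653 in H3K27me3 from 4000 to 250000 cells. Levels are methylated over all calls, with 95% Wilson intervals that cover counting error only, since reads carry no molecular identifiers. Every call was counted as independent, although neighbouring CpGs can be read on the same read. Intervals and limits at 0 can therefore be too narrow, and p-values of Fisher's exact test too small, by an amount that was not measured. A level of 0 allows 3 counts of the total. Fisher's exact test needed 20 calls on both sides, with Benjamini-Hochberg adjustment over all unified autosomal H3K9me3 peaks and a threshold of 0.05. On simulated data with 200 peaks changed by 40 points it recovered 75.0% (flanks), 95.0% (H3K27me3) and 89.0% (H3K4me1). The simulated calls were independent and covered all tested H3K9me3 peaks. Shared reads were not simulated, and recovery was not measured over the members alone. Python 3.11.15, scipy 1.17.1 and pandas 2.3.3 were used.

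Named members had at least 20 run 2 and 10 run 1 calls and were the 8 lowest in level, the 8 with most calls, the 4 largest differences each way against H3K27me3, H3K4me1 and the flanks, up to 3 per gene list, the 6 over promoters with most calls, those at the limits, and the 5 genes with most members; Lifr and Tdg, below these minimums, were named after their values were seen, as the lone members of their lists. Members and gene lists were chosen with earlier results of these data known. Alternatives changed the call minimum, flank, width, density, gene overlap, list support, run and CpGs used. No genome or exon annotation was used here.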

Additional observations from a re-analysis of the deposited data

How the results depend on the processing

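With runs treated as 1 library and no replicates there is no test across samples. No paired analysis was possible because runs 1 and 2 of a mark are treated as 1 library and no comparison was tested across replicates. Requiring at least 2 of the 3 lists left 1942 members. The level was 86.8% over CpGs with at least 3 calls, 87.4% with 50% of the peak in genes (87.438) and in at least 2 lists (87.4448), and 86.7% under 3 kb wide; leaving out a run gave 87.03 to 87.36%. The difference from peaks between genes was 0.471 to 0.870 points by run.

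Members higher inside than in flanks numbered 100 with 40 calls a side, 66 with 2 kb flanks, 246 with both runs summed and 27 in run 1 alone, and those lower inside 45, 47, 148 and 5 in the same order. Against H3K27me3, higher calls numbered 0 with 40 calls, 3 with 10 calls, 0 at shared CpGs, 2 in run 1 and 2 with 100000 H3K27me3 cells; against H3K4me1 they numbered 4 with 40 calls, 36 with 10 calls, 11 at shared CpGs and 2 without run 2. Fewer or more peaks and calls entered most of these tests, and no other cause was tested.

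Of 126 values of single members under alternatives, 115 kept direction and side of the threshold, 6 moved by more than their error and 1 lost its call (Tasor2 against 100000 cells, 22.5 points, adjusted exact p = 0.177). The 4 that changed sign were, at shared CpGs, Tasor2 (-6.59) and Stra6l (-14.7) against H3K27me3 and Lrrc37a (-1.51) against H3K4me1, and Gm45871 (5.09) against H3K4me1 without run 2; the cause was not tested. With a median of 40 run 2 calls a member, depth limits single levels, and 39 and 44 members limit both library comparisons.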

Other observations

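Few members overlapped other kinds of gene. Long non-coding RNA genes were overlapped by 130 members (4.05%) and by 1176 peaks between genes (9.48%). Pseudogenes were overlapped by 27 members (0.842%) and by 360 peaks between genes (2.90%). Small RNA genes were rarer, with 2 members over miRNA genes and 6 over snoRNA genes. The groups were split by overlap with protein-coding genes, so these shares depend in part on where the other genes lie relative to those. They were not set against an expected share.

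Chromosomes differed in how many narrow CpG-poor peaks lay in genes, from 13.1% on chromosome 3 to 28.0% on chromosome 8. Member levels ranged from 84.4% on chromosome 14 to 89.2% on chromosome 9 (SD 1.35 points over 19 chromosomes, mean of runs).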
